A study of Columba livia with 18 samples.

Results

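Cryptochromes and the other genes of the circadian clock were described in hair cells of the pigeon (Columba livia) inner ear. The members are 9 symbols, namely CRY1, CRY2, PER2, PER3, CLOCK, ARNTL, NPAS2, NR1D2 and RORA. They were found by the symbol of the similar protein that the table of gene models gives for each row. In all, 12 of the 20918 gene models carry one of these symbols, because CRY1, CRY2 and CLOCK have 2 gene models each. Gene models were matched to these symbols by name alone, with no measured value used. The symbols themselves were chosen with earlier results of these data known.

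The clock is a loop of transcription that turns over about once a day in most cells. CLOCK, or its relative NPAS2, pairs with ARNTL (also called BMAL1) and switches on the period and cryptochrome genes, whose proteins return to the nucleus and silence the pair. A second loop adjusts ARNTL itself, which is activated by RORA and repressed by NR1D2 (REV-ERB beta). In mice the cochlea holds such a clock, and sensitivity of the ear to noise damage varies with time of day. Cryptochromes descend from light-activated DNA repair enzymes, and in birds a cryptochrome of the retina has been proposed as a light-dependent magnetic sensor. The cuticulosome is an iron-rich organelle found in the cuticular plate of some avian hair cells.

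Each library was made from a pool of 30 hair cells, picked singly with a micromanipulator from the trypsinised cochlear duct after removal of the lagena. The 9 birds were 1 year old and each gave 1 cuticulosome positive and 1 cuticulosome negative pool, so that the 18 libraries form 9 pairs. The labels name no treatment and no engineered allele, and both cell types of a bird come from the same tissue. Libraries were sequenced on 3 flow cells of 3 birds each, with birds 433, 434 and 435 on flow cell 1, birds 450, 451 and 458 on flow cell 2, and birds 513, 514 and 515 on flow cell 3. Birds were housed under equal hours of light and dark, but the time of day at which each was sampled is not given in the sources used here. Flow cell therefore cannot be told apart from anything else that the birds sequenced together shared.

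Levels are given as FPKM, which scale the fragments of a transcript by its length and by the mapped fragments of the library, are set per length and can be compared between genes. The number of reads behind a value is unknown. Relative depth, estimated from the lowest values, ran from 0.505 to 1.43 over the libraries and was higher in the positive pool in 2 of 9 birds. Between 8855 and 16008 gene models lay above 0, with more in the positive pool in 8 of 9 birds. The lowest count, 8855, belonged to the negative library of bird 515, whose relative depth was 1.18. Of 16 hair cell marker symbols 13 had gene models, and otoferlin (OTOF, gene model CLIV_019819) reached a mean of 1193 FPKM. Of 20 supporting cell gene models 16 had a mean above 1 FPKM, among them GJB6 (CLIV_005073) at 307 FPKM, while SOX2 was at 0.660 FPKM and GFAP at 0.0210 FPKM. Of 11 glial and neuronal gene models 9 had a mean above 1 FPKM, and their sum ran from 269 to 2660 FPKM in positive and from 348 to 624 FPKM in negative pools. The summed red blood cell markers were higher in the positive pool in 7 of 9 birds, with ranges of 503 to 4690 FPKM in positive and 475 to 37327 FPKM in negative pools. The summed supporting cell markers ran from 278 to 3839 FPKM in positive and from 224 to 2326 FPKM in negative pools. The positive library of bird 435 stood apart. It held the most gene models above 0, a hair cell marker sum of 622 FPKM where the other 17 libraries had at least 2470 FPKM, and the highest sum of glial and neuronal markers. The negative library of bird 435 held the highest red blood cell sum, 37327 FPKM. Among negative pools it also had the lowest hair cell sum, 3018 FPKM, and the highest supporting cell sum, 2326 FPKM. Without bird 435 the log2 differences of all 10 tested clock gene models kept their sign, and otherwise the part of these markers in the results was not tested. In such pools fewer cells of a type and less RNA per cell cannot be told apart.

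Clock transcripts ranged from abundant to barely detected in these cells. RORA was the most abundant member, with a median of 118 FPKM over the 18 libraries, above 92.4% of the 11393 gene models whose mean FPKM exceeded 1. CRY2 followed at 38.5 FPKM, NR1D2 at 24.99 FPKM and ARNTL at 15.7 FPKM. The middle one of those 11393 gene models had a median of 7.38 FPKM. Below it lay PER2 at 6.36 FPKM, CRY1 at 2.22 FPKM and PER3 at 0.733 FPKM. Lower still were the second CRY1 gene model at 0.412 FPKM and the better covered CLOCK gene model at 0.319 FPKM. The second gene models of CLOCK and CRY2, and NPAS2, had medians of 0.

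**Figure D1:**
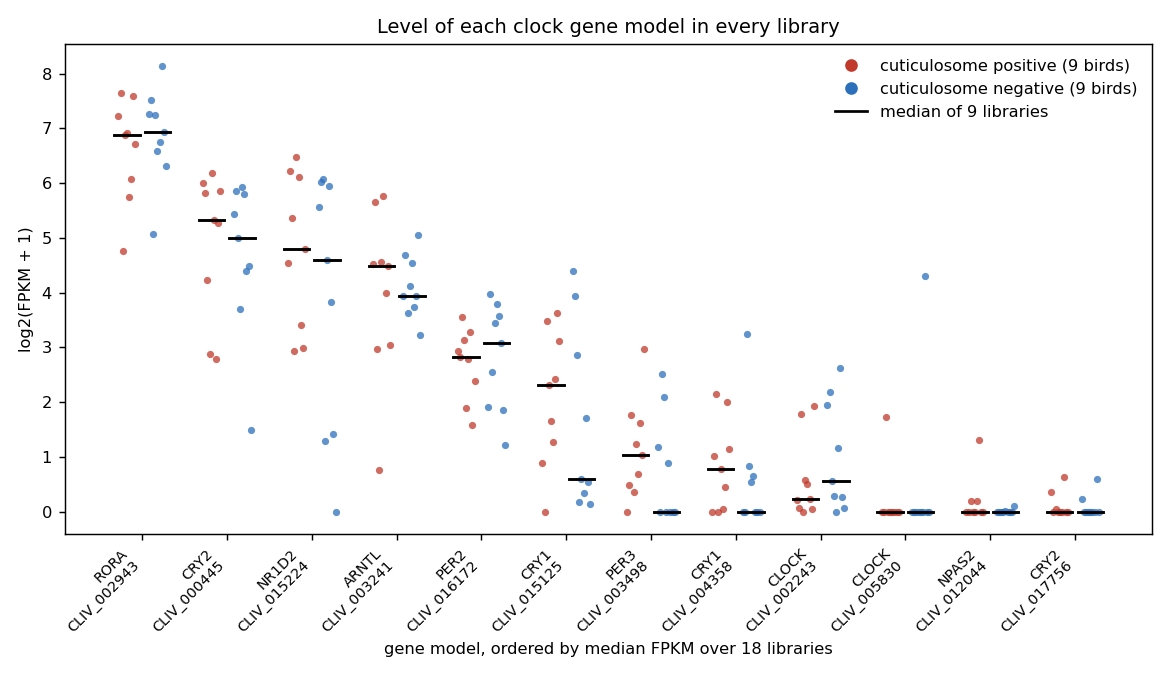
Level of the 12 clock gene models as log2(FPKM + 1), 1 point per library, in order of the median over 18 libraries. Red points are the 9 cuticulosome positive and blue points the 9 cuticulosome negative pools, and black lines are medians. RORA, with libraries between 26.2 and 280 FPKM, stands highest, and the positive and negative points of every gene model overlap.

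Some neighbours in this order were separated in nearly every bird and others were not. Taking the mean of the 2 libraries of a bird, RORA lay above CRY2 in 9 of 9 birds and ARNTL above PER2 in 8 of 9. CRY2 exceeded NR1D2 in 6 birds and 8 of 18 libraries, and NR1D2 exceeded ARNTL in 6 birds and 12 libraries, so neither pair of neighbours differed beyond its spread, while CRY2 lay above ARNTL in 8 of 9 birds and 13 of 18 libraries. PER2 exceeded CRY1 in 5 of 9 birds and CRY1 exceeded PER3 in 9 of 9, but over single libraries these counts were 14 and 15 of 18. PER3, the second CRY1 gene model and CLOCK had no stable order, with 6 and 4 of 9 birds following it.

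Within the activating arm, ARNTL was clearly detected and the gene models of its partners had low values. ARNTL (CLIV_003241, scaffold 16 of the study's pigeon assembly) ranged from 0.695 to 53.5 FPKM in positive pools, with a median of 21.3 FPKM. In negative pools it ranged from 8.40 to 32.3 FPKM, with a median of 14.4 FPKM. The groups overlapped, and the lowest value, 0.695 FPKM, belonged to the positive library of bird 450, which also had the lowest relative depth of 0.505. Positive was higher in 5 of 9 birds and the log2 difference was -0.12 (SE 0.47, 95% interval -1.13 to 0.88, limma adjusted p = 0.980). This log2 difference, positive minus negative, was fitted to log2(FPKM + 1) within birds, and it understates the change of low genes. Its sign is opposite to that of the mean FPKM, which was 22.0 ± 18.3 in positive and 17.4 ± 7.59 in negative pools (SD, n = 9). Without bird 450 the difference was 0.28.

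CLOCK, the histone acetyltransferase that binds DNA with ARNTL, has 2 gene models. RefSeq names 1 CLOCK gene, so reads of that gene may be split over them and the values of each may be too low. CLIV_002243, on scaffold 38, ranged from 0 to 2.81 FPKM in positive pools, with a median of 0.174 FPKM, and from 0 to 5.16 FPKM in negative pools, with a median of 0.465 FPKM. It was lower in the positive pool of 6 of 9 birds, the groups overlapped, and the log2 difference was -0.41 (SE 0.48, limma adjusted p = 0.917). The other gene model, CLIV_005830 on scaffold 72, whose identity is uncertain, was listed at 0 in 16 of 18 libraries. Its only values were 2.32 FPKM in the positive library of bird 435 and 18.6 FPKM in the negative library of bird 513. The negative library of bird 513 was also the one where CLIV_002243 was highest, at 5.16 FPKM. Both CLOCK gene models passed the filter on mean FPKM only through the negative pools, where their means were 1.53 and 2.07 FPKM against 0.731 and 0.258 FPKM in positive pools, so the direction of their differences is tied to that filter.

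NPAS2, which can take the place of CLOCK, was at most barely detected. CLIV_012044, on scaffold 160, was listed at 0 in 13 of 18 libraries and exceeded 1 FPKM in a single one, the positive library of bird 513, at 1.47 FPKM. Its mean of 0.102 FPKM put it below the level needed for the test. In a fit with no filter on expression its log2 difference was 0.18 (SE 0.13, limma adjusted p = 0.803).

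Among the repressors, CRY2 was the abundant cryptochrome. CLIV_000445, on scaffold 34, ranged from 5.93 to 71.8 FPKM in positive pools, with a median of 39.0 FPKM, and was high in birds 433, 434, 451 and 515. In negative pools it ranged from 1.80 to 60.3 FPKM, with a median of 30.9 FPKM. The groups overlapped along most of their range, and bird 450 was low in both pools, at 6.34 FPKM positive and 11.9 FPKM negative. Positive was higher in 4 of 9 birds, with a log2 difference of 0.26 (SE 0.49, 95% interval -0.78 to 1.29, limma adjusted p = 0.953). The positive sign rested on bird 515, with 57.1 FPKM in the positive and 1.80 FPKM in the negative library, and without that bird the difference was -0.26. That negative library held the fewest gene models above 0 of all 18 libraries. Whether this bears on its CRY2 value was not tested. The annotation of CLIV_000445 bears on its level. Besides the photolyase and flavin-binding domains of a cryptochrome, it carries an EamA domain and a triose-phosphate transporter domain, which belong to sugar nucleotide and solute carriers. RefSeq places the carrier gene SLC35C1 next to CRY2 in the pigeon assembly bColLiv1.pat.W.v2, and 0 gene models of the table carry that symbol. The share of the CRY2 value that could come from the neighbour was not tested.

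The second CRY2 gene model, CLIV_017756 on scaffold 338, carries the photolyase domain alone. It was listed at 0 in 13 of 18 libraries and never exceeded 0.546 FPKM. RefSeq names 1 CRY2 gene in the pigeon, so the identity of this fragment is uncertain. In the fit with no filter its log2 difference was 0.02 (SE 0.10, limma adjusted p = 0.954).

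CRY1, the other canonical repressor, was low and uneven. CLIV_015125, on scaffold 287, carries both cryptochrome domains and ranged from 0 to 11.3 FPKM in positive pools, with a median of 3.95 FPKM. In negative pools it ranged from 0.108 to 19.96 FPKM, with a median of 0.506 FPKM. The groups overlapped. The negative libraries of birds 433 and 434, at 19.96 and 14.3 FPKM, were the highest of all, while 5 of the 9 negative libraries lay below 1 FPKM. Positive was higher in 7 of 9 birds, with a log2 difference of 0.45 (SE 0.74, 95% interval -1.11 to 2.02, limma adjusted p = 0.944). With 1 bird left out the difference lay between 0.13 (without bird 514) and 1.003 (without bird 434). Mean FPKM ran the other way, at 4.66 ± 4.15 in positive and 4.92 ± 7.34 in negative pools (SD, n = 9). The second CRY1 gene model, CLIV_004358 on scaffold 454, carries the photolyase domain but not the flavin-binding domain. It reached 3.46 FPKM in positive and 8.52 FPKM in negative pools, both in bird 435, and was listed at 0 in 7 of 18 libraries. Its log2 difference was 0.26 (SE 0.40, limma adjusted p = 0.941). RefSeq names a single CRY1 gene, so reads of 1 gene may be split over these gene models. The identity of CLIV_004358 is uncertain, and it may also be another gene.

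The period genes were measured at low to middling levels. PER2, the partner that carries cryptochromes into the nucleus, ranged from 1.98 to 10.8 FPKM in positive pools (CLIV_016172, scaffold 181), with a median of 6.11 FPKM. In negative pools it ranged from 1.31 to 14.8 FPKM, with a median of 7.47 FPKM. It exceeded 1 FPKM in 18 of 18 libraries, the groups overlapped, and the log2 difference was -0.12 (SE 0.49, 95% interval -1.16 to 0.92, limma adjusted p = 0.985). The gene model carries the C-terminal period domain only, with no PAS domain annotated. PER3 (CLIV_003498, scaffold 693) ranged from 0 to 6.86 FPKM in positive pools, with a median of 1.05 FPKM, and from 0 to 4.75 FPKM in negative pools, with a median of 0. It was listed at 0 in 1 positive and 5 negative libraries. Its log2 difference was 0.39 (SE 0.50, limma adjusted p = 0.926), and positive was higher in 5 of 9 birds.

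Both nuclear receptors of the stabilising loop were well expressed. RORA (CLIV_002943, scaffold 87) ranged from 26.2 to 200.3 FPKM in positive pools, with a median of 116 FPKM, and from 32.4 to 280 FPKM in negative pools, with a median of 122 FPKM. Its groups overlapped, and both libraries of bird 435 were the lowest of their group, at 26.2 and 32.4 FPKM. RORA had the narrowest error of the tested members, with a log2 difference of -0.25 (SE 0.27, 95% interval -0.82 to 0.31, limma adjusted p = 0.903). Without bird 435 the difference was -0.25, and without bird 513, whose pools read 66.3 FPKM positive and 280 FPKM negative, it was -0.03.

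NR1D2, the repressor of ARNTL, had the largest difference among the tested members and did not pass. CLIV_015224, on scaffold 37, ranged from 6.66 to 88.4 FPKM in positive pools, with a median of 26.8 FPKM, and from 0 to 66.6 FPKM in negative pools, with a median of 23.2 FPKM. The groups overlapped, with the negative libraries of birds 450, 514 and 515 at 1.44, 1.69 and 0 FPKM and no positive library below 6.66 FPKM. Positive was higher in 6 of 9 birds, with a log2 difference of 0.90 (SE 0.52, 95% interval -0.20 to 2.01, limma adjusted p = 0.902). The widest gap on the log2 scale was in bird 515, at 26.8 FPKM positive and 0 negative, and without that bird the difference was 0.42. Its negative library was the one with the fewest gene models above 0.

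**Figure D2:**
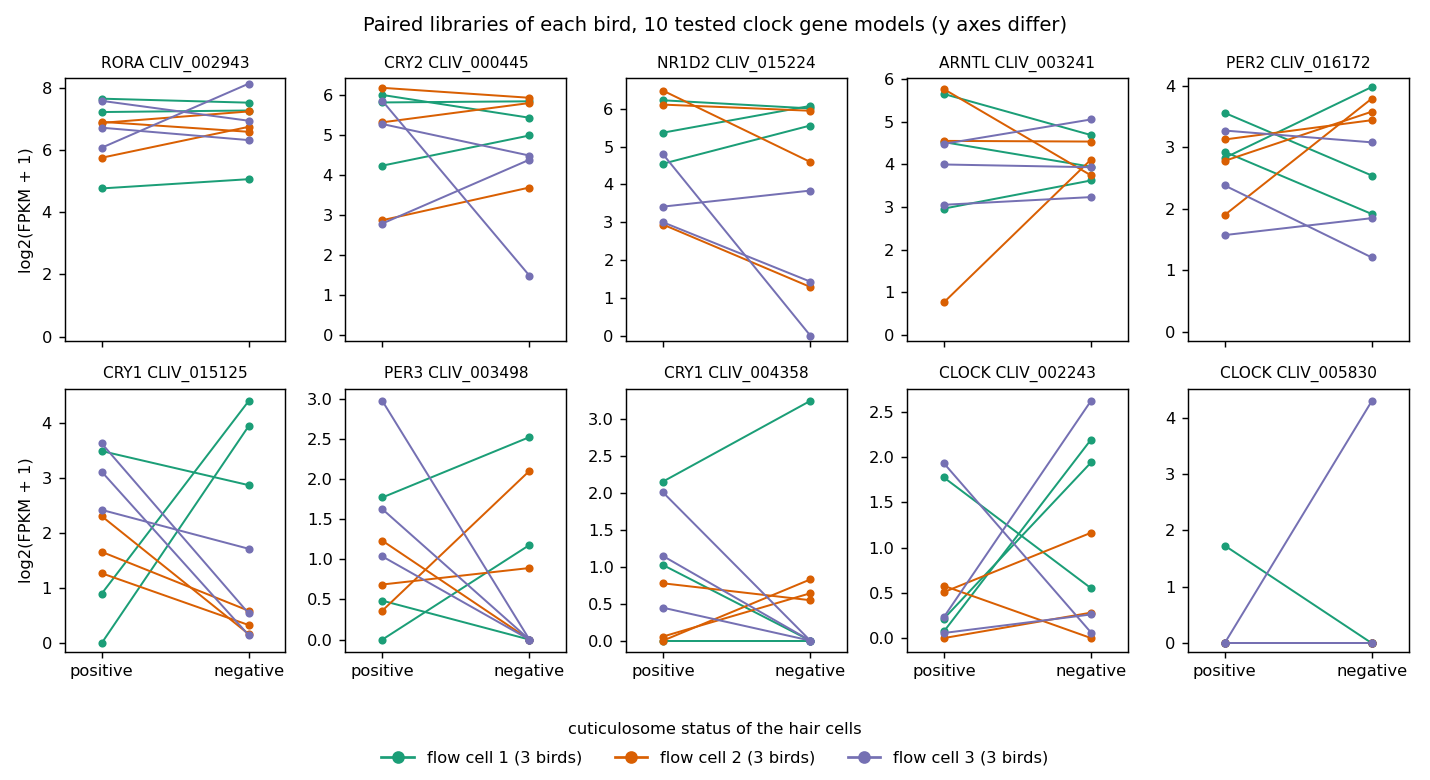
Paired libraries of each bird for the 10 tested clock gene models, with log2(FPKM + 1) on y axes that differ between panels and lines joining the cuticulosome positive (left) and negative (right) pool of 1 bird, coloured by flow cell. In every panel lines rise in some birds and fall in others, CLOCK CLIV_005830 holds values above 0 in 2 libraries only, and CRY1 CLIV_015125 falls from positive to negative in 7 of 9 birds.

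The study asked which transcripts differ between hair cells with and without the organelle. For the clock genes, 0 of the 10 tested gene models passed an adjusted p of 0.05 in limma in either direction, where the background over all 11393 gene models was 0%. That background holds for limma on log2(FPKM + 1) alone. With its own test on read counts, also blocked on the bird, the study reported transcripts that passed in both directions. At an unadjusted p under 0.05 the count was also 0 of 10, against a background of 5.28%, made up of 3.27% higher and 2.01% lower in positive pools. Their adjusted p ran from 0.902 to 0.985. Of the 10 differences 5 were positive and their median was 0.07, beside 53.9% positive and a median of 0.05 over all gene models tested. The SE of the members ran from 0.27 to 0.74, and every interval included 0. Differences of up to 2.02 on the log2 scale in CRY1 and 2.01 in NR1D2 lie within those intervals, so that equal levels were not shown either.

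**Figure D3:**
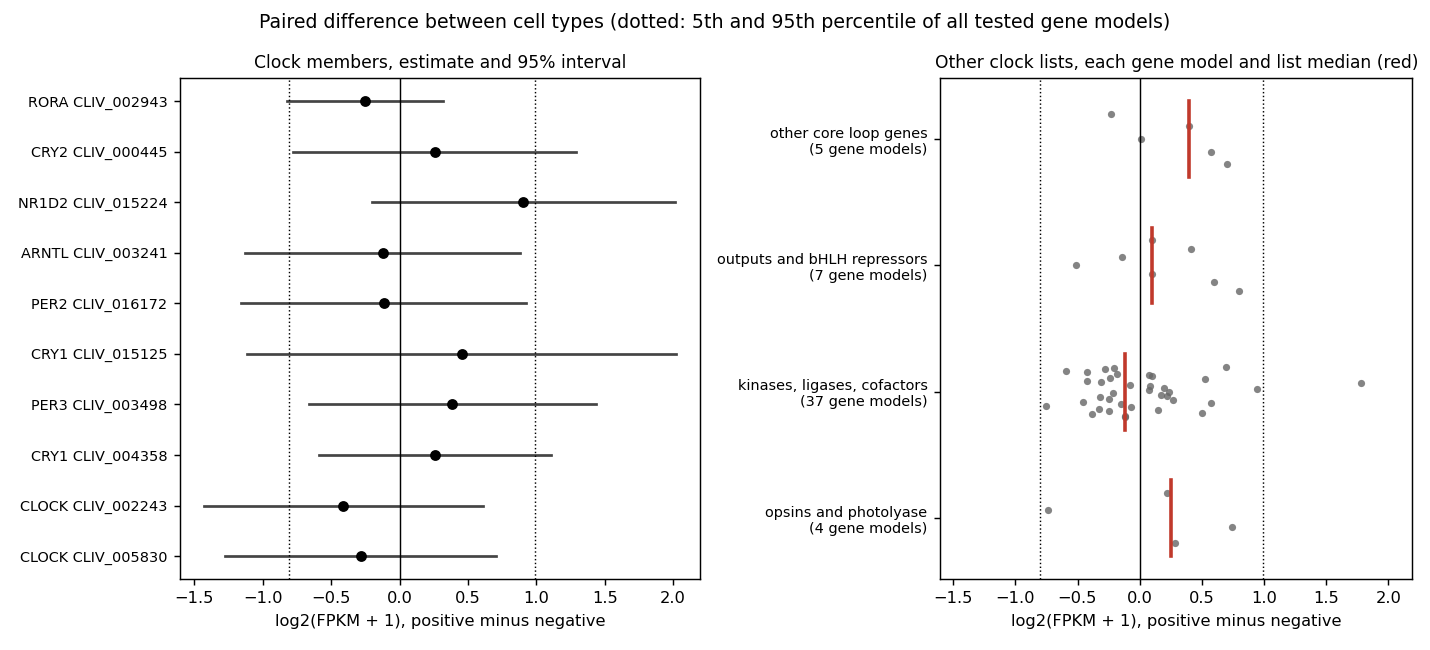
Difference in log2(FPKM + 1), positive minus negative, from the limma fit within birds. Left, the 10 tested clock members with 95% intervals, all of which include 0; right, the 53 tested gene models of 4 other clock lists with the list median in red. Dotted lines mark -0.81 and 0.99, the 5th and 95th percentile of all 11393 tested gene models.

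The mean difference between cell types in CRY1 (CLIV_015125) changed sign between flow cells, in an interaction that did not pass after adjustment. On flow cell 1 the positive libraries of birds 433, 434 and 435 read 0.860, 0 and 10.2 FPKM, against 19.96, 14.3 and 6.29 FPKM in the negative libraries. On flow cells 2 and 3 the positive library was higher in 6 of 6 birds, with positive values from 1.41 to 11.3 FPKM and negative values from 0.108 to 2.28 FPKM, which overlapped. The mean log2 difference was -2.27 on flow cell 1, 1.38 on flow cell 2 and 2.25 on flow cell 3. The interaction of cell type and flow cell had F = 5.44 for CRY1 CLIV_015125, the largest of the tested members, with a limma adjusted p of 0.994. It was the only 1 of 10 tested members with an unadjusted p under 0.05 there, against a background of 4.55% of all gene models, and 0 passed after adjustment. Fitted without flow cell 1, the log2 difference of CRY1 was 1.82 (SE 0.63, limma adjusted p = 0.905) and that of NR1D2 was 1.61 (SE 0.69, limma adjusted p = 0.905). These were the 2 of 10 members with an unadjusted p under 0.05 in that fit, against a background of 4.64%. Both had a negative mean log2 difference on flow cell 1, -2.27 in CRY1 and -0.50 in NR1D2. Leaving it out raises both by construction, so no conclusion is drawn from that count. It was 0 of 10 without flow cell 2 and 0 of 10 without flow cell 3. The log2 difference of CRY1 CLIV_015125 was -0.0099 without flow cell 2 and -0.44 without flow cell 3. For NR1D2 it was 0.74 without flow cell 2 and 0.37 without flow cell 3.

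Of the tested gene models, RORA and CLOCK CLIV_002243 had a mean difference of the same sign on all 3 flow cells. NR1D2 had mean log2 differences of -0.50, 1.23 and 1.98 on flow cells 1, 2 and 3, and CRY2 had -0.07, -0.35 and 1.19. For RORA the values were -0.07, -0.35 and -0.34, and for CLOCK CLIV_002243 they were -0.87, -0.12 and -0.24. The direction in this CLOCK gene model is tied to the filter on mean FPKM, and its levels were low. Its shared sign is therefore no support for a difference. PER2 was lower in the positive pool of 3 of 3 birds on flow cell 2, with a mean log2 difference of -1.002, and PER3 was higher in 3 of 3 birds on flow cell 3, with 1.88. With 3 birds each, these within-flow-cell values carry no test.

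**Figure D4:**
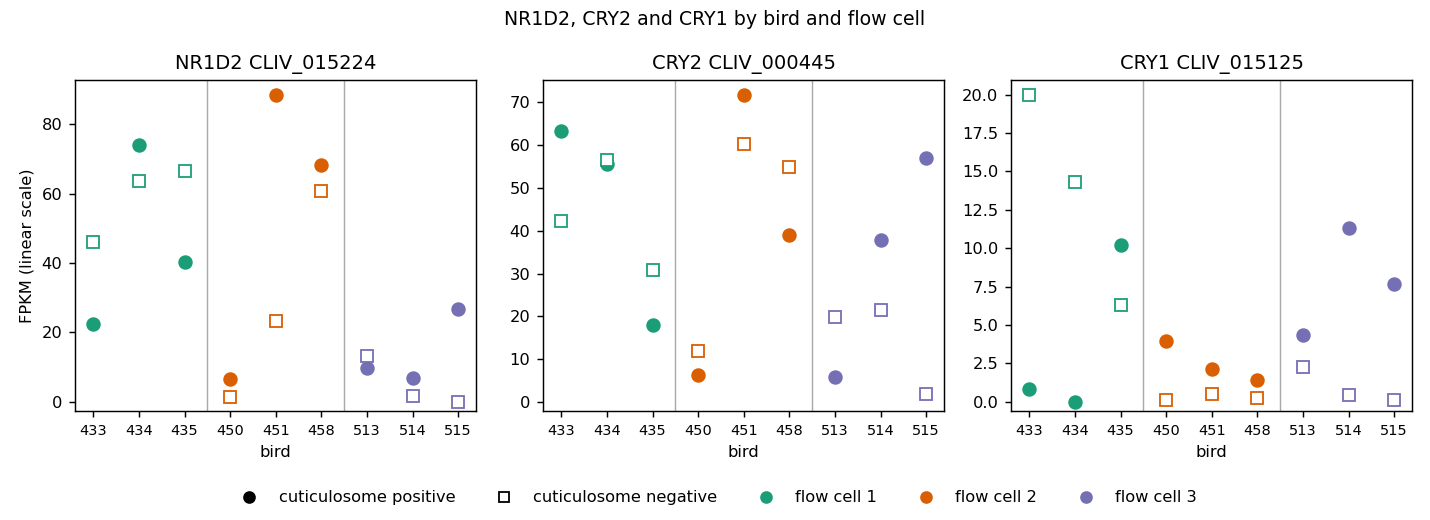
FPKM on a linear scale of NR1D2, CRY2 and CRY1 CLIV_015125 in each bird, with filled circles for cuticulosome positive and open squares for negative pools, and colours and vertical lines for flow cells. NR1D2 stays at or below 26.8 FPKM in the 6 libraries of flow cell 3, and the open squares of CRY1 lie above the circles in birds 433 and 434 alone.

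The share of variance between birds was above that of most gene models in RORA and NR1D2 and near the median in CRY2 and ARNTL. Of the variance of log2(FPKM + 1), differences between birds took 76.8% for RORA, 73.8% for NR1D2, 60.3% for CRY2 and 60.1% for ARNTL, beside a median of 59.8% over the tested gene models. Shares of birds and of cell type are read here only against those medians, since the 9 birds can take up more variance than the 2 cell types whatever the gene. Cell type took 2.18%, 5.75%, 0.966% and 0.319% in the same 4 genes, beside a median of 2.34%. Bird 435 had the lowest RORA value in both cell types, and shares without that bird were not computed. The intraclass correlation of the libraries of a bird was 0.571 for RORA and 0.567 for NR1D2, where the upper quartile over tested gene models was 0.530. For CRY1 CLIV_015125, CLOCK CLIV_002243 and PER3 it was negative, at -0.479, -0.404 and -0.238, so that in these low genes the pools of a bird were no closer to each other than to those of other birds.

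NR1D2 had its lowest mean level on flow cell 3, a contrast that did not pass its test. Its bird means averaged 52.2 ± 17.3 FPKM on flow cell 1, 41.5 ± 32.7 FPKM on flow cell 2 and 9.74 ± 4.77 FPKM on flow cell 3 (SD, n = 3 birds each). Low values were not confined to flow cell 3, as bird 450 on flow cell 2 read 6.66 FPKM positive and 1.44 FPKM negative. Flow cells took 39.9% of its variance, against a median of 14.5% over the tested gene models. The limma F test of level by flow cell gave F = 5.74 and an adjusted p of 0.496. NR1D2 was the only 1 of 10 members with an unadjusted p under 0.05 in that test, against a background of 8.74%, and 0 of all gene models passed after adjustment.

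Across libraries the members moved together only in part. Over the 28 pairs of the 8 main gene models (1 for each symbol, NPAS2 left out), Pearson correlations over 18 libraries had a median of 0.16 and ran from -0.45 for RORA with PER3 to 0.76 for CRY2 with NR1D2. Only 3 pairs exceeded 0.5, namely CRY2 with NR1D2, CRY1 with CLOCK at 0.54 and CRY2 with ARNTL at 0.51. The libraries share birds, depth and flow cells, and these correlations are a description. CRY2 and NR1D2 were both low in the pools of bird 450 and in the negative library of bird 515, and their paired differences correlated at 0.80 over 9 birds. Without bird 515 the correlation was 0.64 over 16 libraries and 0.28 over 8 paired differences. NR1D2 and its target ARNTL correlated at 0.27 over 18 libraries and at -0.28 over the 9 paired differences.

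For the 3 most abundant members, the annotated gene models with the most similar profile were sought among 10137. RORA was closest to UCP2, a mitochondrial uncoupling protein (r = 0.90), SCRN1, secernin (r = 0.88), and CALM, calmodulin (r = 0.86). CRY2 was closest to ABCD2, a peroxisomal fatty acid transporter (r = 0.87), ATP2B2, the calcium pump of hair bundles (r = 0.87), and the kinase MST4 (r = 0.87). NR1D2 was closest to WDFY1 (r = 0.91), the sorting nexin SNX14 (r = 0.91) and the ubiquitin ligase PELI1 (r = 0.89). These are the highest of many correlations over 18 libraries that share birds and depth.

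The rest of the clock machinery was read through 4 further lists. Over all gene models tested, 53.9% of differences were positive, their median was 0.05, and 5.28% had an unadjusted limma p under 0.05. Of 10 other core loop symbols 6 had gene models and 5 gene models were tested, of which 4 had a positive difference, with a median of 0.40. RORB enters with gene models CLIV_007128 at 0.57 and CLIV_011933 at 0.40, and the latter is that median. None of the 5 passed after adjustment, and 0 of 5 had an unadjusted limma p under 0.05. The most abundant of this list was TIPIN, the partner of TIMELESS, at 36.7 ± 18.2 FPKM in positive and 31.4 ± 24.6 FPKM in negative pools (SD, n = 9). Neither TIPIN nor TIMELESS is among the genes of the loop described above. PER1, CRY4, CRY5 and CIART were matched to no row by symbol and were not analysed here. Of 9 output genes and basic helix-loop-helix repressors 7 gene models were tested, 5 with a positive difference and a median of 0.10. HLF (CLIV_003760), an output factor that binds D-boxes, was highest at 44.6 ± 20.4 FPKM in positive and 33.5 ± 18.8 FPKM in negative pools. Again 0 of 7 had an unadjusted limma p under 0.05. DBP was not analysed here.

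The kinases, ligases and cofactors that set the pace of the loop held the only gene model of the 4 lists with an unadjusted limma p under 0.05, a count that was 2 without bird 434, without bird 450 or without flow cell 2, and 0 without flow cell 3. Of 34 symbols 32 had gene models and 37 gene models were tested, with 16 positive differences and a median of -0.11. Over all gene models tested these were 53.9% positive and 0.05. CSNK1E, casein kinase 1 epsilon, which marks period proteins for degradation, ranged from 21.8 to 74.7 FPKM in positive pools, with a median of 54.5 FPKM. In negative pools it ranged from 0.0281 to 58.5 FPKM, with a median of 17.8 FPKM. The groups overlapped, positive was higher in 9 of 9 birds, and the negative libraries of birds 514 and 515 were near 0, at 0.106 and 0.0281 FPKM. That of bird 515 was also the library with the fewest gene models above 0. The log2 difference was 1.78 (SE 0.53, limma adjusted p = 0.902), which did not pass. Without the birds of flow cell 3 it was 0.76 (SE 0.36) and its unadjusted limma p exceeded 0.05. CSNK1E was 1 of 37 with an unadjusted p under 0.05, against the background of 5.28%. Its relatives gave smaller differences, of -0.21 (SE 0.40) in CSNK1D and 0.07 (SE 0.23) in CSNK1A1, with CSNK1D at 65.9 ± 47.9 FPKM in positive and 71.0 ± 37.4 FPKM in negative pools and CSNK1A1 at 72.6 ± 27.2 and 69.0 ± 26.2 FPKM. SKP1, a subunit of the ubiquitin ligases that remove cryptochromes, was the most abundant at 918 ± 156 FPKM in positive and 1004 ± 211 FPKM in negative pools. CSNK2B and PPP1CC were not analysed here.

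Light sensing proteins other than cryptochromes were mostly not detected. Of 12 gene models of opsins and photolyase 7 were listed at 0 in 18 of 18 libraries and 4 were tested. The highest was OPN5 (CLIV_007501), a violet and ultraviolet sensitive opsin of deep brain and retina, with a median of 17.0 FPKM in positive and 9.97 FPKM in negative pools. OPN5 ranged from 0.527 to 20.7 FPKM in positive and from 0.471 to 34.1 FPKM in negative pools, which overlapped, and its log2 difference was 0.74 (SE 0.51, limma adjusted p = 0.902). OPNVA, OPN1LW and OPN1SW were not analysed here, and 0 of the 4 tested had an unadjusted limma p under 0.05, against a background of 5.28%.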

How the data were processed

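Full-length cDNA of 18 pools was read as single 50 base reads. The authors aligned with TopHat 1.4.1 to the pigeon assembly of the gene models, keeping 1 hit per read, and estimated FPKM with bias correction in Cufflinks 1.3.0. They also counted reads with HTSeq 0.6.1p1 and ran DESeq2 1.10.1 with the bird as a block. The deposited table holds those FPKM and, from the authors' comparison, the mean signal (normalized counts), log2 fold change, its standard error and Wald score, and p-value with its adjustment. None of these comparison columns was used. The study states only an approximate number of reads per sample. FPKM are not counts, so the depth of each library is unknown and no counting interval was computed.

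Values were tested as log2(FPKM + 1) (pseudocount 1) with limma 3.58.1 in R 4.3.3, blocking on the bird and with a trend of variance on mean level, over 11393 gene models with mean FPKM above 1, and Benjamini-Hochberg adjustment at 0.05. Pairing comes from the bird numbers in the labels. Deviations of the libraries of a bird correlated at 0.12 to 0.59 (median 0.18), and those of different birds at -0.14 to 0.14 (median -0.06). These ranges overlapped, and the value of 0.59 belonged to bird 435. Tables and plots used Python 3.11.15, pandas 2.3.3, numpy 2.4.6 and matplotlib 3.10.9. The limma fit and depth estimate were tested on simulated data. Names follow a rule: every gene model of the 9 members; in each other list the most abundant gene model, any with an unadjusted p under 0.05 and symbols without a gene model; and the 3 nearest profiles of the 3 most abundant members. CSNK1D, CSNK1A1 and RORB were added after their values were seen. Hair cell, supporting cell, red blood cell and glial lists were read as summed FPKM. Alternatives were the fit with no block, other pseudocounts, filters and scaling, robust moderation, and leaving out each bird or flow cell; the test of level by flow cell was added after seeing the data. RefSeq tables of another assembly gave names and neighbours only. Members and lists were chosen with earlier results of these data known.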

Additional observations from a re-analysis of the deposited data

Results flagged for a closer look

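In 24 groups of 9 libraries (12 gene models in each cell type), 7 held a library far from the others by Dixon's ratio on the log2 scale; chance gives about 1 in 20 groups, and groups with many values at 0 are flagged by a single value. CRY2 CLIV_000445 read 1.80 FPKM in the negative library of bird 515, where the other negative libraries had 11.9 to 60.3 FPKM. The second CRY1 gene model, CLIV_004358, read 8.52 FPKM in the negative library of bird 435, where the others had at most 0.777 FPKM. The second CLOCK gene model, CLIV_005830, read 2.32 FPKM in the positive library of bird 435 and 18.6 FPKM in the negative library of bird 513, with 0 in all others. NPAS2 read 1.47 FPKM in the positive library of bird 513, where the others had at most 0.148 FPKM, and 0.0688 FPKM in the negative library of bird 515, where the others had at most 0.00812 FPKM. The second CRY2 gene model, CLIV_017756, read 0.515 FPKM in the negative library of bird 514, where the others had at most 0.172 FPKM.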

How the results depend on the processing

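Over the 18 alternative settings 0 gene models, clock members included, passed an adjusted p of 0.05 in limma, and the lowest adjusted p of a tested member was 0.803. Without the pairing of libraries (no replicate block) 182 gene models were higher and 113 lower at an unadjusted p under 0.05, against 372 and 229 with it, and 0 passed after adjustment; no call of a member changed. Members at an unadjusted p under 0.05 numbered 2 without flow cell 1 and 0 with each single bird left out. The median log2 difference of the members ran from -0.19 to 0.26 when 1 bird was left out. Some signs turned, and no difference had passed in any setting. With 1 bird left out, CRY2 ran from -0.26 (without bird 515) to 0.49, ARNTL from -0.39 to 0.28 (without bird 450), PER2 from -0.28 to 0.11 (without bird 451; 0.014 without bird 434) and CLOCK CLIV_005830 from -0.54 to 0.22 (without bird 513). With their sign kept, RORA ran to -0.03 (without bird 513), NR1D2 to 0.42 and PER3 to 0.06 (both without bird 515), CRY1 CLIV_004358 from 0.04 (without bird 514) to 0.43 and CLOCK CLIV_002243 from -0.70 to -0.16 (without bird 513). The sign of CLOCK CLIV_002243 is tied to the filter on mean FPKM. Without flow cell 2, ARNTL was 0.032, PER2 0.33 and CRY1 CLIV_015125 -0.0099. Without flow cell 3, CRY2 was -0.21, CRY1 CLIV_015125 -0.44, CRY1 CLIV_004358 -0.21, PER3 -0.36 and CLOCK CLIV_005830 0.29. With a pseudocount of 0.1 the differences were 1.37 in NR1D2, 1.33 in PER3, 0.92 in CRY1 CLIV_004358, 0.86 in CRY1 CLIV_015125, -0.82 in CLOCK CLIV_002243 and -0.23 in ARNTL. The cause of these changes was not tested. The table gives no read numbers of single libraries, so values near 0 cannot be told from missed transcripts.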

Other observations

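A gene model annotated as cryptochrome DASH, a relative of the photolyases, was looked up after its values were seen. CRY-DASH (CLIV_018141) had a median of 0.00889 FPKM, was listed at 0 in 9 of 18 libraries and reached 19.1 FPKM in the highest. Its log2 difference was 0.76 (SE 0.52, limma adjusted p = 0.902).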
